A study of Mus musculus with 8 samples.

Results

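The genes described here were 10 imprinted genes of growth control, *H19*, *Meg3*, *Rian*, *Dlk1*, *Peg3*, *Plagl1*, *Ndn*, *Mest*, *Peg10* and *Grb10*. They were chosen by symbol, with earlier results of these data known, as coding and noncoding genes of the imprinted gene network. Each had 1 row among the 54532 gene rows of the expression table. The cells were MICFs, cardiac fibroblasts taken 6 days after infarction from hearts of 8-week-old male C57BL/6 mice, infected with lentiviruses for MGT (*Mef2c*, *Gata4* and *Tbx5*), *Myocd*, *Sall4* and eGFP, and labelled MGTMyoS overexpression. All constructs were switched on by doxycycline. Sorted eGFP+ cells were sequenced after injection into C57BL/6 hearts infarcted by ligation of a coronary artery (the *in vivo* samples) or after staying in culture (the *in vitro* samples), at 1 week (Day 7) and 2 weeks (Day 14), with 2 libraries in each of the 4 groups. The transplanted mice drank doxycycline and received tacrolimus, mycophenolate mofetil and methylprednisolone, whereas the culture medium held doxycycline, the TGF-β receptor inhibitor SB431542 and the JAK inhibitor baricitinib. The heart, the medium and these drugs therefore cannot be told apart as sources of a difference between the groups. The methods do not say which animals or wells a library came from, so the p-values measure only the spread between these libraries, which may be technical.

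An imprinted gene is read mainly from the copy inherited from the mother or from the father. Many imprinted genes act on growth: they are abundant in the embryo and the placenta, fall in most organs after birth, and stay high in some mesenchymal and progenitor cells. Several of them were described as a co-expressed network, in which *Plagl1* encodes a zinc finger transcription factor that acts on other members. *H19*, *Meg3*, *Rian* and, outside neurons, *Grb10* are read from the maternal copy. *Dlk1*, *Peg3*, *Plagl1*, *Ndn*, *Mest* and *Peg10* are read from the paternal copy. The data here were total levels per gene, so they do not say which parental copy a fragment came from.

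Of the 10 genes, 4 enclose hairpins of miRNAs on their own strand in GRCm38, 7 hairpins with 13 mature miRNAs in all. The mature sequences (RefSeq, GRCm38.p6) inside *H19* and *Mest*, those of the *Mir770* hairpin of *Meg3*, and those of the last of the 3 hairpins along *Rian*, are shown because these hosts differed between the groups. Capitals mark the seed, bases 2 to 8, and the 13 seeds are all different.
mmu-miR-675-5p (*H19*, exon, chr7:142577112-142577133): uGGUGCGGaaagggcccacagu
mmu-miR-675-3p (*H19*, exon, chr7:142577078-142577099): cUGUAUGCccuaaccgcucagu
mmu-miR-770-5p (*Meg3*, exon, chr12:109563710-109563731): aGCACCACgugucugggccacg
mmu-miR-770-3p (*Meg3*, exon, chr12:109563744-109563765): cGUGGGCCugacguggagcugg
mmu-miR-370-5p (*Rian*, intron, chr12:109618270-109618289): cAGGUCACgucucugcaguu
mmu-miR-370-3p (*Rian*, intron, chr12:109618305-109618326): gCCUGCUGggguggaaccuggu
mmu-miR-335-5p (*Mest*, intron, chr6:30741314-30741336): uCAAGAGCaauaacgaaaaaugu
mmu-miR-335-3p (*Mest*, intron, chr6:30741354-30741375): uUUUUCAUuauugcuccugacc
The libraries were made from mRNA, and the mature miRNAs themselves were not measured.

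Values are FPKM, fragments scaled to gene length and library size, as deposited, over 12304242 to 14546904 fragments on genes per library with a median of 12919717. The comparisons used limma on log2(FPKM + 0.1) over the 15708 genes that reached an FPKM of 0.5 in 2 or more libraries, and 9 of the 10 genes passed that filter, all but *Dlk1*. A gene was called higher or lower where the Benjamini-Hochberg adjusted p was below 0.01 and the log2 difference exceeded 1 in size. The deposited FPKM carry a scaling between libraries. Rescaling them to the fragments on genes moved the all-gene median difference to -0.34 (1 week) and -0.32 (2 weeks), and the share of called genes that were higher *in vivo* from 60.6% to 36.8% and from 52.8% to 33.1%. All 8 fibroblast markers were above an FPKM of 0.5 in every library, and so were all 8 macrophage markers. The summed FPKM of the fibroblast markers was 10148 to 13231 *in vivo* and 2080 to 3179 *in vitro*, and that of the macrophage markers was 1831 to 2877 *in vivo* and 4560 to 5701 *in vitro*. The summed level of the 6 cardiomyocyte markers was 9.81 to 22.4 *in vivo*, 111 to 123 *in vitro* at 1 week and 556 to 630 *in vitro* at 2 weeks. For 5 mesothelial markers the sum was 11.5 to 28.8 *in vivo* and 180 to 407 *in vitro*, for 6 endothelial markers it was 63.8 to 80.5 and 19.8 to 47.7, and the 4 myogenic markers summed to at most 0.121 anywhere, with *Pax7* at 0 in every library. The part of these markers in the results below was not tested, and in such bulk samples fewer cells of a type and less RNA per cell cannot be told apart.

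At 1 week, 7 of the 9 tested genes were called, with *H19*, *Meg3*, *Rian*, *Peg3* and *Plagl1* higher *in vivo* and *Mest* and *Peg10* lower. At 2 weeks, 4 were called, with *Meg3*, *Rian* and *Plagl1* higher *in vivo* and *Mest* lower. Among all tested genes 12.9% were called at 1 week (7.79% higher and 5.07% lower) and 17.1% at 2 weeks (9.02% higher and 8.05% lower), against 77.8% and 44.4% of the 9 genes. The median absolute log2 difference of the 9 genes was 1.15 at 1 week and 0.85 at 2 weeks, beside 0.40 and 0.47 over all tested genes. The 9 genes were chosen with earlier results of these data known. These shares and medians therefore describe them and do not test the set. Of the 4 maternally expressed genes 3 were called higher at 1 week and 2 at 2 weeks, and none was called lower. The 2 at 2 weeks, *Meg3* and *Rian*, lie in 1 cluster. *H19* was lower *in vivo* at 2 weeks (-0.85, limma adjusted p = 0.00069) and missed only the minimum difference. The 5 tested paternally expressed genes were split, 2 being called in each direction at 1 week and 1 in each direction at 2 weeks. After rescaling to fragments on genes, 4 of the 9 were called at 1 week in place of 7, because *Meg3* (0.81), *Rian* (0.95) and *Peg3* (0.71) fell under a log2 difference of 1.

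**Figure D1:**
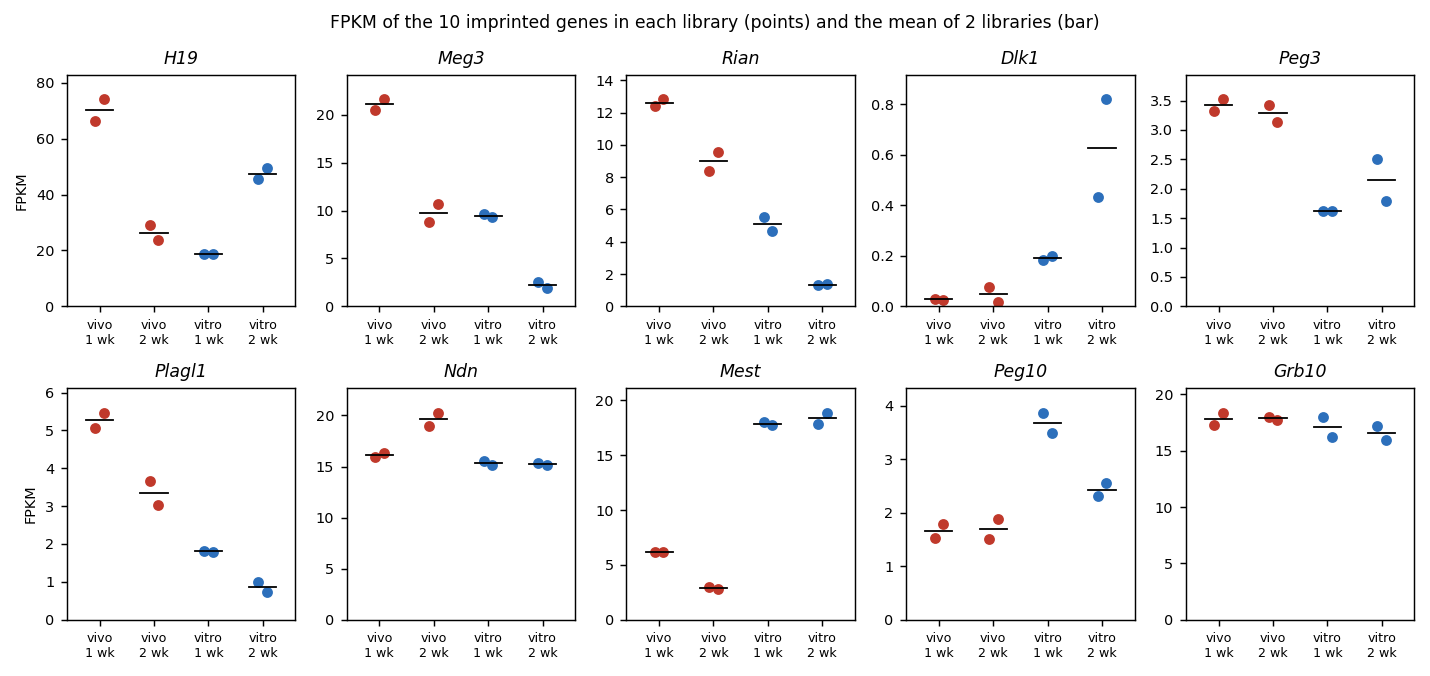
FPKM (vertical axis, linear, starting at 0, scaled for each gene) of the 10 imprinted genes in each library, grouped by place and week, with *in vivo* in red, *in vitro* in blue and a bar at the mean of the 2 libraries of a group. *H19* is highest *in vivo* at 1 week (66.5 and 74.1) and lowest *in vitro* at 1 week (18.8 and 18.9), *Meg3*, *Rian* and *Plagl1* are lowest *in vitro* at 2 weeks, *Mest* and *Dlk1* are higher in the 4 *in vitro* libraries, and *Grb10* stays between 16.0 and 18.4.

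**Figure D2:**
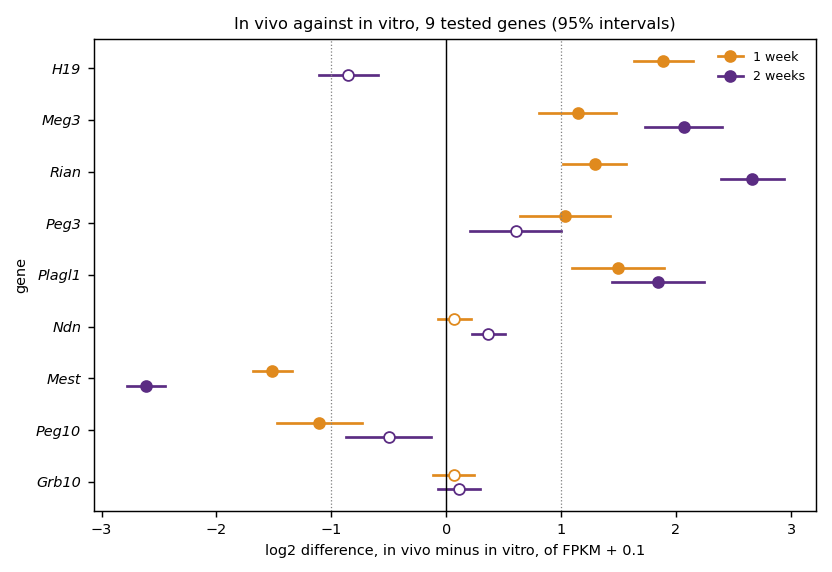
Log2 difference of FPKM + 0.1, *in vivo* minus *in vitro* (horizontal axis), of the 9 tested genes at 1 week (orange) and 2 weeks (purple) with 95% intervals from limma. Filled points were called, open points were not, and dotted lines mark differences of -1 and 1. *H19* lies at 1.89 at 1 week and -0.85 at 2 weeks, while *Meg3*, *Rian* and *Plagl1* lie right of 1 and *Mest* left of -1 at both weeks.

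*H19* had the highest FPKM of the 10 genes in every group, and the order of its *in vivo* and *in vitro* levels turned around between the weeks. It is a long noncoding RNA (ENSMUSG00000000031, chr7:142575529-142578143, minus strand), known from mouse deletions as a brake on growth. Its FPKM was 66.5 and 74.1 *in vivo* and 18.8 and 18.9 *in vitro* at 1 week. At 2 weeks it was 29.1 and 23.7 *in vivo* and 45.6 and 49.4 *in vitro*. The ranges of the groups did not overlap at either week, with the *in vivo* libraries above the others at 1 week and below them at 2 weeks. The log2 difference was 1.89 at 1 week (standard error 0.11, limma adjusted p = 2.5e-05), with means 3.72-fold apart. At 2 weeks it was -0.85 (standard error 0.11, limma adjusted p = 0.00069), short of the minimum of 1 and not called. It was called lower *in vivo* at 2 weeks after rescaling to fragments on genes (-1.18) and without *in vivo* replicate 1 of that week (-1.0). The growth factor gene *Igf2*, which lies beside *H19* and is read from the other parental copy, had an FPKM of at most 0.0895, with 0 to 6 fragments in a library, so it was not tested.

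The change of the difference itself, 2 weeks against 1 week, was -2.74 on the log2 scale for *H19* (standard error 0.15, limma adjusted p = 0.0011). Within the *in vitro* samples *H19* rose from 1 week to 2 weeks by 1.33 (limma adjusted p = 0.00058), and within the *in vivo* samples it fell by 1.41 on the log2 scale (limma adjusted p = 0.00096). The fall *in vivo* missed the threshold without replicate 1 or replicate 2 of the *in vivo* libraries at 1 week (limma adjusted p = 0.013 and 0.012). The change of the difference missed it when any 1 of 6 libraries was left out, that is either *in vivo* library at 1 week, either *in vitro* library at 1 week or either *in vitro* library at 2 weeks, with values from -2.82 to -2.66 and a limma adjusted p from 0.01 to 0.018. These comparisons share libraries and are not independent of each other.

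*Meg3* and *Rian*, noncoding RNAs read in the same direction from the maternal copy of the *Dlk1*-*Dio3* cluster on chromosome 12, were higher *in vivo* at both weeks and fell over time in culture. *Meg3* (ENSMUSG00000021268, chr12:109541001-109571726, plus strand) lies at the start of that run and is known for its effects on p53 and on growth. *Rian* (ENSMUSG00000097451, chr12:109603940-109661716, plus strand) is a host of small nucleolar RNAs and miRNAs. The 300-base windows around their annotated starts, 250 bases before to 50 after (RefSeq, GRCm38.p6, plus strand), are shown because both RNAs were called higher *in vivo* at both weeks. Capitals mark CpG dinucleotides.
*Meg3* (chr12:109540746-109541045): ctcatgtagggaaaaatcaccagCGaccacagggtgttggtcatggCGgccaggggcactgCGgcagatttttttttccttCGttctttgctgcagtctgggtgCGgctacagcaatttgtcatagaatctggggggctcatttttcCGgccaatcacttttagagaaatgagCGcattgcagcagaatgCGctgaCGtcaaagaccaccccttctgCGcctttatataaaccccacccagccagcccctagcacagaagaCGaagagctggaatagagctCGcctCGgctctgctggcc
*Rian* (chr12:109603695-109603994): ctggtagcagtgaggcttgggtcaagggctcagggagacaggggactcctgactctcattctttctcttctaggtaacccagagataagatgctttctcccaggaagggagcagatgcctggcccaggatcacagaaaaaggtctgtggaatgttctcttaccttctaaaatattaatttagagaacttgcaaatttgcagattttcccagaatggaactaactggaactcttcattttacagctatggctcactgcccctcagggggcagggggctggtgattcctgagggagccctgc
The *Meg3* window holds 13 CpG and the letters TATAAA on the gene's strand, which 8.32% of the 32851 promoter windows of that table hold. The *Rian* window holds 0 CpG, as 5.43% of all windows do, and the median of all windows is 7. *Meg3* has a further annotated start whose window (chr12:109545148-109545447) holds 1 CpG.

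The FPKM of *Meg3* was 20.5 and 21.6 *in vivo* and 9.64 and 9.29 *in vitro* at 1 week. At 2 weeks it was 8.78 and 10.7 *in vivo* and 2.55 and 1.96 *in vitro*. *Meg3* thus fell in both places, and the *in vivo* libraries stayed above the *in vitro* libraries of the same week. The log2 difference was 1.15 at 1 week (standard error 0.14, limma adjusted p = 0.00079) and 2.07 at 2 weeks (standard error 0.14, limma adjusted p = 4.2e-05). At 1 week it missed the threshold without replicate 2 of the *in vivo* libraries of that week (1.11, limma adjusted p = 0.011). Its change of the difference between weeks was 0.92 (limma adjusted p = 0.036) and was not called.

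The FPKM of *Rian* was 12.4 and 12.8 *in vivo* and 5.56 and 4.66 *in vitro* at 1 week. At 2 weeks it was 8.37 and 9.58 *in vivo* and 1.30 and 1.36 *in vitro*. The lowest *in vivo* library at 2 weeks was still above the highest *in vitro* library of either week. Its log2 difference was 1.29 at 1 week (standard error 0.11, limma adjusted p = 0.00018) and 2.66 at 2 weeks (standard error 0.11, limma adjusted p = 5.7e-06), with means 6.75-fold apart at 2 weeks. The change of that difference between weeks was 1.37 (standard error 0.16, limma adjusted p = 0.0061), and it missed the threshold whichever of the 8 libraries was left out (1.25 to 1.5, limma adjusted p from 0.014 to 0.039).

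Both RNAs fell in culture from 1 week to 2 weeks, *Meg3* by 2.03 and *Rian* by 1.86 on the log2 scale (limma adjusted p = 0.00037 and 0.00029). *In vivo*, *Meg3* fell by 1.11 on the log2 scale (limma adjusted p = 0.0045), a call lost under 10 of the 19 alternatives, 6 of which left out 1 library (all but replicates 1 and 2 of the *in vitro* libraries at 2 weeks, limma adjusted p up to 0.041). *Rian* had -0.49 over the same time *in vivo* (limma adjusted p = 0.032) and was not called. The ratio of *Meg3* to *Rian* FPKM was 1.66 and 1.68 *in vivo* at 1 week, 1.73 and 1.99 *in vitro* at 1 week, and 1.96 and 1.44 *in vitro* at 2 weeks. At 2 weeks *in vivo* it was 1.05 and 1.11, below the other 6 libraries, and this ratio was not tested. The ratio of *H19* to *Meg3* was 1.95 to 3.43 in 6 libraries and 17.9 and 25.2 in the *in vitro* libraries at 2 weeks.

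The other genes of this cluster did not follow 1 pattern. *Mirg*, the maternally expressed miRNA host downstream of *Rian*, had an FPKM of 0.949 and 1.23 *in vivo* and 0.285 and 0.248 *in vitro* at 1 week, then 0.729 and 1.07 against 0.129 and 0.0605 at 2 weeks. Its log2 difference was 1.69 (limma adjusted p = 0.0081) and 2.36 (limma adjusted p = 0.0015). At these low levels its call at 1 week was lost under 12 of 18 alternatives, with values down to 0.72. Among these were the fits without any 1 of the 4 libraries of that week, *in vivo* replicate 2 of 2 weeks or *in vitro* replicate 1 of 2 weeks. Its call at 2 weeks was lost under 3 of 18, with values down to 0.79, among them the fit without *in vivo* replicate 2 of that week (2.11). *Dio3*, which is read from the paternal copy and encodes the deiodinase that inactivates thyroid hormone, was higher *in vivo* as well, with an FPKM of 2.19 and 3.10 against 0.320 and 0.165 at 1 week, and 2.53 and 2.54 against 0.285 and 0.145 at 2 weeks. Its log2 difference was 3.02 and 3.10 (limma adjusted p = 0.00053 and 0.00036). *Begain*, at the other end of the cluster, had log2 differences of 0.04 and 0.67 and was not called, and the paternally expressed *Rtl1* had 0 to 10 fragments in a library and was not tested.

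**Figure D3:**
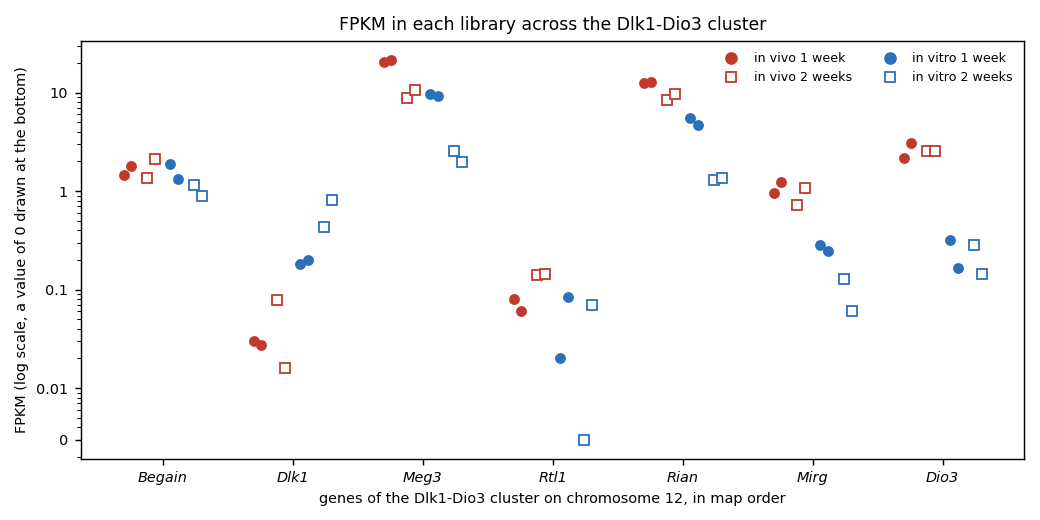
FPKM of 7 genes of the *Dlk1*-*Dio3* cluster in map order (horizontal axis) on a log axis in each library, with *in vivo* in red, *in vitro* in blue, filled circles for 1 week and open squares for 2 weeks, and a value of 0 drawn at the bottom. *Meg3*, *Rian*, *Mirg* and *Dio3* are higher in the *in vivo* libraries of each week, *Dlk1* is higher in the *in vitro* libraries, and *Begain* (0.901 to 2.10) overlaps between the groups at 1 week.

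*Dlk1*, a paternally expressed gene of that cluster, was near the detection limit *in vivo* and had more fragments in culture. It encodes a transmembrane protein with EGF repeats that holds back fat cell differentiation (ENSMUSG00000040856, chr12:109452823-109463336, plus strand). Its FPKM was 0.0302 and 0.0271 *in vivo* and 0.184 and 0.201 *in vitro* at 1 week, from 2, 2, 16 and 17 fragments. At 2 weeks it was 0.0783 and 0.0160 *in vivo* and 0.435 and 0.819 *in vitro*, from 5, 1, 34 and 63 fragments. All 4 *in vitro* libraries were above all 4 *in vivo* libraries. The pooled ratio of *in vitro* to *in vivo*, scaled by library size, was 6.73 at 1 week (exact 95% interval 2.39 to 26.1) and 13.2 at 2 weeks (5.83 to 36.7), intervals that cover counting error only. Only 1 library reached an FPKM of 0.5, so *Dlk1* was not tested in the comparison. With no filter on low values its log2 difference was -1.18 at 1 week (limma adjusted p = 0.088) and -2.28 at 2 weeks (limma adjusted p = 0.0071).

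Of the transcription factor genes, *Plagl1* was higher *in vivo* at both weeks and *Peg3* at 1 week. *Plagl1* (ENSMUSG00000019817, chr10:13060504-13131694, plus strand) encodes a zinc finger factor, also known as Zac1, that can stop the cell cycle. Its FPKM was 5.07 and 5.47 *in vivo* and 1.82 and 1.79 *in vitro* at 1 week, and 3.66 and 3.03 *in vivo* and 0.999 and 0.734 *in vitro* at 2 weeks. The ranges were apart at both weeks. The fitted log2 difference was 1.49 at 1 week (standard error 0.17, limma adjusted p = 0.00055) and 1.84 at 2 weeks (standard error 0.17, limma adjusted p = 0.00016), and it stayed called under all 19 alternatives at both weeks. In culture the value for 2 weeks against 1 week was -0.99 (limma adjusted p = 0.008), just short of the minimum of 1.

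*Peg3* (ENSMUSG00000002265, chr7:6703892-6730431, minus strand) encodes a large zinc finger protein studied in maternal behaviour and fetal growth. Its FPKM was 3.33 and 3.52 *in vivo* and 1.62 in both *in vitro* libraries at 1 week, and 3.43 and 3.14 *in vivo* and 2.51 and 1.80 *in vitro* at 2 weeks. The *in vivo* libraries were above the *in vitro* libraries at both weeks. The log2 difference was 1.03 at 1 week (standard error 0.17, limma adjusted p = 0.0026), which was called, and 0.60 at 2 weeks (limma adjusted p = 0.021), which was not. The call at 1 week was lost under 7 of the 19 alternatives. Among these were the fits without any 1 of the 4 libraries of that week (0.99 to 1.07) and rescaling to fragments on genes (0.71). The change between weeks was -0.43 (limma adjusted p = 0.29), so the 2 weeks were not shown to differ. Beside *Peg3*, *Usp29* had 0 or 1 fragment in every library, and *Zim1* had 2 to 16 fragments in 6 libraries and 51 and 40 in the *in vivo* libraries at 2 weeks.

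The letters GGGGCCCC, a palindrome that is the core of the site bound by the *Plagl1* product, were searched in the start windows of the 8 genes with an entry. They were in the *Peg3* window and in no window of the other 7, beside 1.08% of all promoter windows. TATAAA on either strand was in the *Meg3* window alone, beside 13.6% of all windows. A match is a description of the letters and not of binding.

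*Mest* had the largest difference toward the *in vitro* samples among the 9 tested genes. It encodes an enzyme of the alpha/beta hydrolase fold, is read from the paternal copy in mesoderm, and marks enlarging fat tissue (ENSMUSG00000051855, chr6:30723547-30748465, plus strand). Its FPKM was 6.21 and 6.19 *in vivo* and 18.0 and 17.7 *in vitro* at 1 week, and 3.01 and 2.82 *in vivo* and 17.9 and 18.9 *in vitro* at 2 weeks. The *in vitro* libraries of the weeks overlapped, while the *in vivo* libraries fell. On the log2 scale the difference was -1.51 at 1 week (standard error 0.07, limma adjusted p = 1e-05) and -2.61 at 2 weeks (standard error 0.07, limma adjusted p = 9.6e-07), with *in vitro* means 2.88-fold and 6.30-fold higher. The call held under all 19 alternatives at both weeks. *In vivo* it fell by 1.06 on the log2 scale from 1 week to 2 weeks (limma adjusted p = 0.00069). That call was lost under 3 of the 19 alternatives, with values as small as -0.88. Among these was the fit without replicate 1 of the *in vivo* libraries at 1 week (-1.06). *In vitro* the value for 2 weeks against 1 week was 0.04 (95% interval -0.13 to 0.21, limma adjusted p = 0.73). The change of the difference between weeks was -1.10 (standard error 0.10, limma adjusted p = 0.0034), which missed the threshold whichever of the 8 libraries was left out (-1.15 to -1.06, limma adjusted p from 0.01 to 0.025).

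The 3′ end of *Mest* overlaps 912 bases of *Copg2*, which lies on the opposite strand, and strand use in counting was not stated, so reads there cannot be told apart. *Copg2*, a coat protein subunit of Golgi transport, had log2 differences of -0.86 at 1 week (limma adjusted p = 0.00035) and -0.53 at 2 weeks (limma adjusted p = 0.0024) and was not called, but after rescaling to fragments on genes it was called at 1 week (-1.20). The ratio of *Mest* to *Copg2* FPKM was 1.07 and 1.09 *in vivo* at 1 week, 0.424 and 0.464 *in vivo* at 2 weeks and 1.60 to 1.94 in the 4 *in vitro* libraries.

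*Peg10*, a gene derived from a retrotransposon that is needed for the placenta (ENSMUSG00000092035, chr6:4747306-4760517, plus strand), was lower *in vivo* at 1 week. Its FPKM was 1.52 and 1.80 *in vivo* and 3.87 and 3.49 *in vitro* at 1 week, and 1.51 and 1.87 *in vivo* and 2.31 and 2.55 *in vitro* at 2 weeks. The *in vivo* levels of the weeks overlapped and the *in vitro* levels did not. The log2 difference was -1.11 at 1 week (standard error 0.16, limma adjusted p = 0.0015) and -0.50 at 2 weeks (limma adjusted p = 0.033), the latter not called. The call at 1 week was lost under 4 of the 19 alternatives, with values as small as -0.82. Among these were the fits without replicate 1 of the *in vivo* libraries of that week (-0.99). So were those without replicate 1 or replicate 2 of the *in vitro* libraries of that week (-1.03 and -1.18). The change between weeks was 0.61 (limma adjusted p = 0.13). Its neighbour *Sgce*, which is read in the opposite direction from the same start region and encodes epsilon-sarcoglycan, had 0.20 at 1 week (limma adjusted p = 0.06) and 0.35 at 2 weeks (limma adjusted p = 0.0062) and was not called, with a *Peg10* to *Sgce* ratio of 0.123 to 0.200 *in vivo* and 0.228 to 0.488 *in vitro*.

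*Ndn* and *Grb10* were the steadiest of the 10. *Ndn* encodes necdin, a MAGE family protein that restrains the cell cycle (ENSMUSG00000033585, chr7:62346569-62350262, plus strand). Its FPKM was 15.9 and 16.3 *in vivo* and 15.5 and 15.1 *in vitro* at 1 week, and 18.99 and 20.3 *in vivo* and 15.3 and 15.1 *in vitro* at 2 weeks. The fitted log2 difference was 0.07 at 1 week (95% interval -0.07 to 0.21, limma adjusted p = 0.39) and 0.36 at 2 weeks (95% interval 0.22 to 0.51, limma adjusted p = 0.0025), below the minimum of 1. *Magel2*, another MAGE gene beside *Ndn*, was listed at 0 in every library.

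*Grb10* encodes an adaptor that binds insulin and IGF receptors and dampens their signal (ENSMUSG00000020176, chr11:11930508-12038683, minus strand). Its FPKM was 17.3 and 18.4 *in vivo* and 18.0 and 16.2 *in vitro* at 1 week, and 18.0 and 17.8 *in vivo* and 17.2 and 16.0 *in vitro* at 2 weeks. The ranges overlapped at 1 week and were narrowly apart at 2 weeks. On the log2 scale the difference was 0.07 (95% interval -0.11 to 0.25, limma adjusted p = 0.53) and 0.11 (95% interval -0.07 to 0.29, limma adjusted p = 0.27). Rescaling to fragments on genes gave *Grb10* -0.28 and -0.22 and *Ndn* -0.27 and 0.03, with the median of all genes at -0.34 and -0.32. The neighbour of *Grb10*, *Ddc*, had 4 to 27 fragments in a library and was not tested.

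Over time in culture, 3 of the 9 tested genes were called, *H19* up and *Meg3* and *Rian* down, and *in vivo* 3 were called, *H19*, *Meg3* and *Mest*, all down. Among all tested genes 3.81% were called over time *in vitro* (2.76% up and 1.05% down) and 2.18% *in vivo* (1.23% up and 0.949% down). For the change of the *in vivo* minus *in vitro* difference between the weeks, *Rian* was called up and *H19* and *Mest* down, beside 1.73% of all tested genes (0.573% up and 1.15% down). The values of the other genes over time were between -0.99 and 0.37 *in vitro* and between -0.64 and 0.28 *in vivo*. The calls over time rest on the spread shared by all 8 libraries: with only the 4 libraries of the place fitted, limma called 0 of the 9 genes and 0 of all genes in either place, and 5 of the 9 *in vitro* and 6 *in vivo* had an unadjusted p under 0.05.

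**Figure D4:**
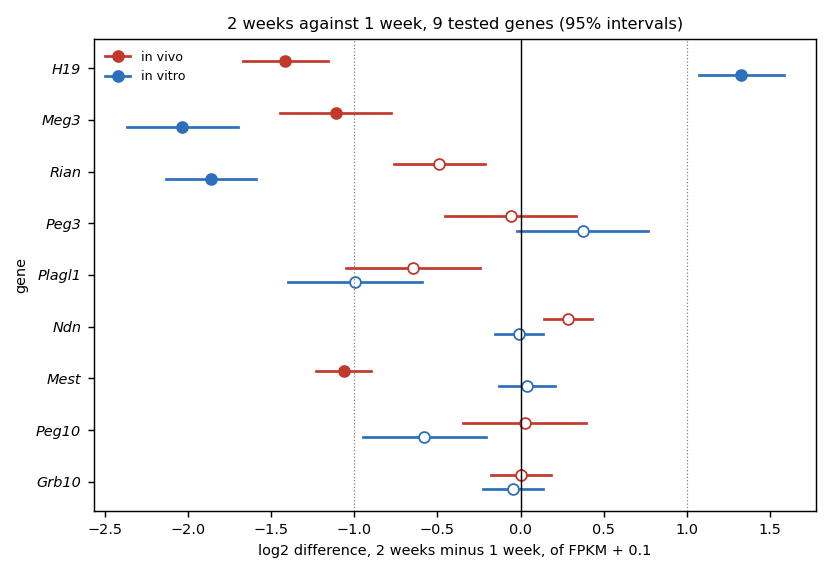
Log2 difference of FPKM + 0.1, 2 weeks minus 1 week (horizontal axis), of the 9 tested genes *in vivo* (red) and *in vitro* (blue) with 95% intervals from limma. Filled points were called, open points were not, and dotted lines mark -1 and 1. *H19* lies at -1.41 *in vivo* and 1.33 *in vitro*, *Meg3* is left of -1 in both places, and *Mest* lies at -1.06 *in vivo* and 0.04 *in vitro*.

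FPKM is scaled by 1 listed length per gene, so an order between genes within a group rests on those lengths. The length was 2460 bases for *H19*, 18089 for *Meg3* and 18234 for *Rian*. In summed fragments *in vivo* at 1 week, *Meg3* (9437) and *Rian* (5691) were above *H19* (4288). By FPKM, *H19* led in every group and *Dlk1* was last in every group. At 1 week *in vivo* *H19* was followed by *Meg3* (mean FPKM 21.1), *Grb10* (17.9), *Ndn* (16.1) and *Rian* (12.6), and the libraries of each neighbouring pair did not overlap. At 2 weeks *in vitro* *H19* was followed by *Mest* (18.4), *Grb10* (16.6) and *Ndn* (15.2), and *Meg3* (2.25) overlapped with *Peg10* (2.43) and *Peg3* (2.16). *Meg3* thus went from the second place *in vivo* at 1 week to the sixth *in vitro* at 2 weeks, and *Mest* from the sixth to the second.

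A wider list of 65 other genes known as imprinted in some mouse tissue, 45 of them tested, gave 9 calls at 1 week, 5 higher *in vivo* and 4 lower, and 11 calls at 2 weeks, 6 higher and 5 lower. These are 20% and 24.4% of its tested genes, beside 12.9% and 17.1% of all tested genes. The median log2 differences were -0.07 and 0.12, beside -0.01 and 0.00 for all tested genes. Some of its genes, among them *Dcn*, *Gatm* and *Tfpi2*, are imprinted mainly in placenta or have weak or debated imprinting. This list, too, was chosen with earlier results of these data known. Of the 12 other genes of the co-expression network, a part of that list, 11 were tested, with 3 higher and 2 lower at each week, 45.5% of them. Over time 1 gene of the wider list was called up and 1 down *in vitro*, 4.44% of its tested genes and near the 3.81% of all tested genes. There, *Cdkn1c*, the cyclin-dependent kinase inhibitor p57, rose by 1.37 (limma adjusted p = 0.0041) and *Tfpi2* fell by 1.20 on the log2 scale (limma adjusted p = 0.005). The call of *Cdkn1c* was lost under 7 of 19 alternatives, among them the fits without any 1 of the 4 *in vitro* libraries (1.21 to 1.52). That of *Tfpi2* was lost under 11 of 19, with values as small as -0.89. Among these were the fits without any 1 library but *in vitro* replicate 2 of 1 week (-1.33 to -0.93). *In vivo* over time limma called 0 of the 45, with 22 at an unadjusted p under 0.05, and voom called 2. *Cdkn1c* and *Tfpi2* moved the same way there, by 1.10 and -1.01 (limma adjusted p = 0.013 for both), and missed only the p threshold. Their change of the difference was -0.26 and 0.19 (limma adjusted p = 0.58 and 0.68), so the places were not shown to differ.

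**Figure D5:**
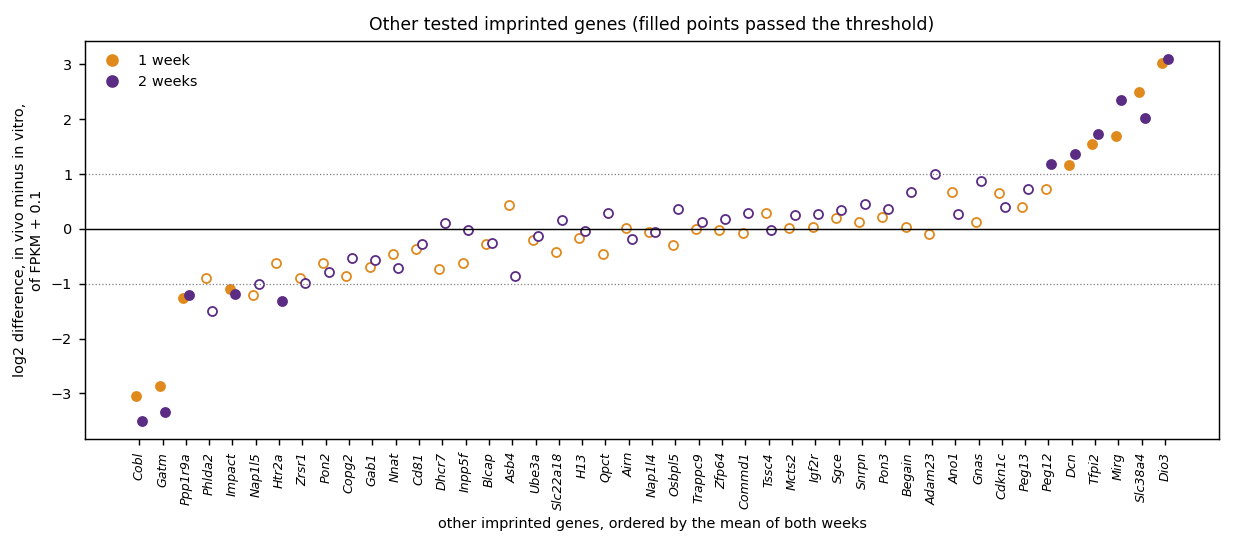
Log2 difference of FPKM + 0.1, *in vivo* minus *in vitro* (vertical axis), of the 45 tested genes of the wider imprinted list at 1 week (orange) and 2 weeks (purple), ordered by the mean of both weeks. Filled points were called, open points were not, and dotted lines mark -1 and 1. *Dio3* lies at the upper end (3.02 and 3.10) and *Cobl* at the lower end (-3.05 and -3.51).

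Besides *Dio3* and *Mirg*, the genes higher *in vivo* were *Slc38a4*, *Tfpi2*, *Dcn* and, at 2 weeks, *Peg12*. *Slc38a4*, an amino acid transporter, had log2 differences of 2.50 and 2.02. *Tfpi2*, a protease inhibitor of the matrix, had 1.55 and 1.73. *Dcn*, the collagen-binding proteoglycan decorin, had 1.16 and 1.36, and it also stands in the fibroblast marker list. After rescaling to fragments on genes *Dcn* was not called at 1 week (0.82), and after quantile normalization at neither week (0.49 and 0.85). *Peg12* had 1.18 at 2 weeks, a call lost under 6 of 19 alternatives, with values down to 0.67. Among these were the fits without either *in vivo* library of that week or replicate 2 of the *in vitro* libraries (0.99 to 1.19).

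The genes lower *in vivo* were *Cobl*, *Gatm*, *Ppp1r9a*, *Impact* and, at 2 weeks, *Htr2a*. *Cobl*, an actin nucleator next to *Grb10* and *Ddc*, had an FPKM of 0.105 and 0.113 *in vivo* and 1.68 and 1.60 *in vitro* at 1 week, then 0.261 and 0.122 against 3.09 and 3.15 at 2 weeks, a log2 difference of -3.05 and -3.51. *Gatm*, which makes the precursor of creatine, had 5.81 and 4.32 *in vivo* and 37.5 and 36.6 *in vitro* at 1 week, with log2 differences of -2.86 and -3.33. *Impact*, a regulator of the kinase GCN2, had -1.09 and -1.18, and its call at 1 week was narrowly lost without replicate 2 of the *in vivo* libraries of that week (-1.0). *Ppp1r9a* (-1.26 and -1.20) lost its call under 6 of 19 alternatives at 1 week, with values as small as -0.65. At 2 weeks it lost it under 5 of 19, with values as small as -0.59. Among these were the fits without any 1 of the 4 libraries at 1 week. So were those without 3 of the 4 at 2 weeks, all but replicate 2 of the *in vivo* libraries. *Htr2a* (-1.31 at 2 weeks), a serotonin receptor gene, lost its call under 5 of 19 alternatives, with values as small as -0.64. Among these were the fits without 3 of the 4 libraries of that week, all but replicate 1 of the *in vivo* libraries.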

How the data were processed

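RNA sequencing gave 8 libraries, 2 from each place and week. A provider made the libraries from mRNA, sequenced and mapped them. The submitters' processing notes name CASAVA, HISAT2 2.0.5 and mm10, and the strand setting of the counting is not given in the sources used here. The authors deposited FPKM per gene, and each of the 8 sample names matched 1 column. Of the gene identifiers, 54409 were shared with GENCODE vM21 (GRCm38), and 98.3% of these had the same start and end.

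FPKM times gene length gave a whole number of fragments (within 0.05) for 100% of values above 0, the fragments per gene. Relative to the fragments on genes, the size behind the FPKM was 0.863 to 0.915 *in vivo* but 1.09 to 1.15 *in vitro*. Replicates varied beyond sampling noise (chi-square divided by genes, 4.50 to 9.93). Differences were tested by limma 3.58.1 in R 4.3.3 (intensity trend, 4 group means, Benjamini-Hochberg adjustment over 15708 genes) on log2(FPKM + 0.1), which understates the change of low genes. The methods of the study name a count test, and limma stands in because the values are FPKM. The script was tested on simulated data. Tables were prepared with Python 3.11.15, numpy 2.4.6, pandas 2.3.3 and scipy 1.17.1, and plotted with matplotlib 3.10.9.

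All 10 genes are named with their chromosomal neighbours. From the wider list the genes called at either week are named, and 2 genes most alike in pattern for each tested gene. *Begain*, *Cdkn1c* and the fall of *Tfpi2* over time were named after their values were seen. The genes and lists were chosen with earlier results of these data known. The alternatives were other pseudocounts, filters, scalings and thresholds, voom, no trend, fewer libraries, a replicate block and each library left out in turn.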

Additional observations from a re-analysis of the deposited data

Results flagged for a closer look

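For 3 genes the *in vivo* minus *in vitro* difference itself changed between the weeks, by limma's test of that change on log2(FPKM + 0.1). It was -2.74 for *H19* (95% interval -3.10 to -2.38, limma adjusted p = 0.0011), where both *in vivo* libraries at 2 weeks lay below both at 1 week and both *in vitro* libraries at 2 weeks lay above both at 1 week. It was 1.37 for *Rian* (95% interval 0.99 to 1.76, limma adjusted p = 0.0061) and -1.10 for *Mest* (95% interval -1.34 to -0.87, limma adjusted p = 0.0034). The call was lost under 6 of 18 alternatives for *H19*, all of them with 1 library left out, under 12 of 18 for *Rian* and under 11 of 18 for *Mest*, while the values stayed between -2.89 and -2.59, between 0.94 and 1.5 and between -1.15 and -0.92.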

How the results depend on the processing

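In no alternative run did a called value of the 9 genes, or of the other imprinted genes named from a comparison, change sign. An adjusted p under 0.05 with no minimum fold called 6605 and 7825 genes at 1 week and 2 weeks, 3942 and 2476 over time *in vitro* and *in vivo* and 1558 for the change of the difference, and among the 9 genes 8 at 2 weeks, 5 over time *in vitro* and 6 *in vivo*. Rescaling to fragments on genes left 4 of the 9 at 1 week, and it moved the share of called genes that rose over time *in vitro* from 72.5% to 65.3%. With only the libraries of 1 place, limma called 0 of the 9 and 0 of all genes over time, with 5992 (*in vitro*) and 4198 (*in vivo*) genes at an unadjusted p under 0.05, and fewer libraries were fitted there. For the change of the difference, 1 of the 9 was called with a pseudocount of 1 and with no intensity trend, and the calls over all genes were 72 with no filter, 473 with voom and 71 with no intensity trend, against 271 (the cause was not tested). Leaving out 1 library leaves a lone library assumed to vary like the others. In those fits the 9 genes gave 5 to 7 calls at 1 week, 4 to 5 at 2 weeks, 3 to 3 over time *in vitro*, 0 to 3 *in vivo* and 0 to 1 for the change of the difference. All genes gave 1448 to 2044, 2011 to 2548, 198 to 555, 11 to 221 and 2 to 86. The calls of 0 were by limma, where 5 to 7 of the 9 had an unadjusted p under 0.05 without that library.

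Same-numbered replicates did not deviate together (correlations of deviations over genes from -0.0477 to -0.0107), so the numbers were not read as pairs. With the replicate number as a block, the change of the difference was called for 1 of the 9 genes and for 27 of all genes, and *Meg3* over time *in vivo* (adjusted p = 0.012) and *Mirg* at 1 week (adjusted p = 0.017) were no longer called by limma. Genes at a few fragments, such as *Dlk1*, *Rtl1* and *Igf2*, are limited by depth.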

Other observations

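The tested genes most alike in pattern were found by the root mean square difference of gene-centred log2(FPKM + 0.1) over the 8 libraries, a description with no test. *H19* was nearest to *Megf6*, a gene for a protein with EGF repeats, at 0.138, and then to *Pcdh12*, a protocadherin gene, at 0.25. *Mest* was nearest to *Fabp5*, a fatty acid binding protein gene, at 0.124 (FPKM of 6.02 to 48.1), and then to *Tmem144* at 0.158. *Rian* was nearest to *Timp1*, the inhibitor of matrix metalloproteinases, at 0.156 (FPKM of 56.2 to 509.6), and then to *Tnfrsf11b*, the gene for osteoprotegerin, at 0.230. *Meg3* was nearest to *Far1os* at 0.223 and *Sirpb1a* at 0.229, both at an FPKM of at most 2.02. *Plagl1* was nearest to *Tmem121* at 0.123 and to *Fbln2*, the matrix protein fibulin-2, at 0.135 (FPKM of 69.4 to 462.2). *Peg3* was nearest to *Trim7* and *Wsb1* (0.110 and 0.111), *Peg10* to *Rhbdd1* and *Aars* (0.0576 and 0.0668), *Ndn* to *Ctdsp2* and *Ppm1a* (0.0484 and 0.0508) and *Grb10* to *Polr3e* and *Exoc3* (0.0375 for both). The small values of *Ndn* and *Grb10* go with their small range over the libraries, 0.42 and 0.20 on the log2 scale, against 1.97 for *H19* and 3.40 for *Meg3*.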
